A study of Mus musculus with 6 samples.

Results

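The genes for the transforming growth factor beta (TGF-beta) ligands, their receptors and the latent TGF-beta binding proteins were followed in mouse tibia. The group holds 10 genes of 56748 in the count tables: the ligand genes Tgfb1, Tgfb2 and Tgfb3, the receptor genes Tgfbr1, Tgfbr2 and Tgfbr3, and the binding protein genes Ltbp1, Ltbp2, Ltbp3 and Ltbp4. They were taken by symbol, each symbol matched 1 gene identifier, and all 10 passed the filter on low counts. RNA-seq libraries were made from polyadenylated RNA of marrow-flushed, frozen and ground tibiae of female mice aged 12 weeks. The Col1a1+/- group, with 3 samples, was heterozygous at Col1a1, the gene of the alpha 1 chain of type I collagen, and the wild-type (WT) group had 3 samples. The title of the series speaks of blocking TGF-beta in a mouse with osteogenesis imperfecta (brittle bone disease) of type I, but no treatment is named for these samples. The sources used here do not give the strain, how the Col1a1 allele was made, or whether each sample was 1 animal. The p-values therefore describe the spread between the 6 samples, which may be partly technical.

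TGF-beta is made as a precursor whose propeptide stays wrapped around the mature growth factor and keeps it latent. A latent TGF-beta binding protein is usually disulfide-bonded to that propeptide and fixes the complex to the extracellular matrix, and bone matrix is one of the largest stores of latent TGF-beta in the body. Once released, for instance by osteoclasts or integrins, the ligand binds the type II receptor, which activates the type I receptor, and SMAD2 and SMAD3 carry the signal to the nucleus. Raised TGF-beta signalling has been described in bones of other mouse models of osteogenesis imperfecta.

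The promoters of 3 members are shown because the scaled levels of Tgfb1 and Tgfb2 in Col1a1+/- lay on opposite sides of WT and Ltbp1 had the smallest p of the 10 genes. Each runs from 250 bases before to 50 bases after a RefSeq transcript start, 5′ to 3′ on the gene's strand, from GRCm38.p6 and matched by symbol. Of the 10 members 8 had an entry, and Tgfb3 and Tgfbr3 are named only. Capitals mark 5 motifs searched on both strands: the SMAD box CAGAC, the AP-1 site TGANTCA, the cyclic AMP response element (CRE) TGACGTCA, the GC box GGGCGG and the TATA box TATAAA. The SMAD box lies in 49.59% of the 32851 promoter windows in the RefSeq table, the GC box in 35.66%, the TATA box in 13.62%, the AP-1 site in 7.81% and the CRE in 1.79%.
Tgfb1 (chr7:25686752-25687051, plus strand): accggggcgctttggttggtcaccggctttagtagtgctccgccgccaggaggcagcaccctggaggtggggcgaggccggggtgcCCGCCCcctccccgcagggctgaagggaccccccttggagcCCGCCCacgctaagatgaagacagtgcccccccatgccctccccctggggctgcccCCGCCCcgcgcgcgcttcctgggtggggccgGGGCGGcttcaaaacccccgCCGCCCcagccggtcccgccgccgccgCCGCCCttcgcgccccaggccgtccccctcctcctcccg
Tgfb2 (chr1:186705940-186706239, minus strand): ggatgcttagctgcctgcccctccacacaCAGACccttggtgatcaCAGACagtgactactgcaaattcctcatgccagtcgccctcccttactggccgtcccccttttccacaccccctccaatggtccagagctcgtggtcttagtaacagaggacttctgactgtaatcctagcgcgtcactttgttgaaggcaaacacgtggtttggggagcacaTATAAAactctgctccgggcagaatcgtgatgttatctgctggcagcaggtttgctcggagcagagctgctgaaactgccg
Ltbp1 (chr17:75005279-75005578, plus strand): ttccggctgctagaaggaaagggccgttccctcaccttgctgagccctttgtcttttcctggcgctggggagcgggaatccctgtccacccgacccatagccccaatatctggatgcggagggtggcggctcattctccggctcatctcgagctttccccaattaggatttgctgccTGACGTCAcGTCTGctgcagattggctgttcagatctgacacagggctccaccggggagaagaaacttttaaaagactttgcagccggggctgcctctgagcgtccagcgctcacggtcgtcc
The Tgfb1 window was 77.0% G or C and held 6 GC boxes and none of the other motifs. The Tgfb2 window was 54.3% G or C and held 2 SMAD boxes, 1 TATA box and no GC box. The Ltbp1 window, the first of 2 listed for that gene, was 58.7% G or C and held 1 CRE and, just downstream, 1 SMAD box on the other strand. The median window was 52.7% G or C. These are matches of letters in one window, not measured binding.

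Libraries held 26.8 to 32.3 M counted reads in Col1a1+/- and 29.3 to 32.4 M in WT. Levels are given as counts-per-million after scaling by the trimmed mean of M values (CPM). Col1a1 itself stood at 61149, 52880 and 59598 CPM in Col1a1+/- replicates 1, 2 and 3, against 36810, 61347 and 54799 CPM in WT replicates (log2 fold change 0.18, SE 0.31, edgeR adjusted p = 0.78), so its level did not check the labels. The libraries also differed in makeup. A list of 24 skeletal muscle genes took 2.04% to 4.03% of reads in Col1a1+/- and 6.28% to 7.89% in WT. Of 16 osteoblast markers, the defining genes of bone-forming cells, none was at 0, and together they took 8.19% to 9.18% in Col1a1+/- and 3.80% to 5.39% in WT. The chondrocyte list took 0.731% to 0.932% in Col1a1+/- against 0.328% to 0.467% in WT, and the neutrophil list 0.106% to 0.177% in Col1a1+/- against 0.151% to 0.636% in WT, with the highest value in wild-type replicate 1. The osteocyte list, used below as an alternative scale, took 0.182% to 0.243% in Col1a1+/- against 0.112% to 0.168% in WT. Scaling on it therefore lowers Col1a1+/- levels relative to WT, and the median log2 fold change of all tested genes was then -0.57. In bulk tissue, fewer cells of a type and less RNA per cell cannot be told apart.

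No member passed an adjusted p of 0.05 between the genotypes by edgeR's quasi-likelihood test, where 803 of 18514 tested genes did (4.34%). Of these 803 genes, 265 were higher (1.43% of all tested) and 538 lower (2.91%) in Col1a1+/-. That split was 588 and 739 with library totals as the scale and 30 and 3713 with libraries scaled on osteocyte genes. An unadjusted p under 0.05 was reached by 5 of the 10 members, Tgfb1, Tgfb2, Tgfbr3, Ltbp1 and Ltbp3, against 22.8% of all tested genes. The CPM of the genotypes did not overlap for 5 of the 10, Tgfb1, Tgfb2, Tgfbr1, Ltbp1 and Ltbp3, against 28.6% of all tested genes. Of those 5, in this scaling, 4 were higher in Col1a1+/- (14.0% of all tested genes) and Tgfb2 was lower (14.5%). The median log2 fold change of the 10 was 0.23 (quartiles -0.07 and 0.38), beside -0.01 (quartiles -0.29 and 0.22) over all tested genes. By DESeq2, which called 13.5% of the genes it adjusted, 3 members were higher in Col1a1+/-, Tgfb1 (adjusted p = 0.0109), Ltbp1 (0.0164) and Ltbp3 (0.0331), and limma-voom called 0. With library totals as the scale edgeR called Tgfb1 and Ltbp3 (7.17% of all genes called), with no low-count filter Ltbp1 (4.53%), all 3 higher in Col1a1+/-, and with osteocyte scaling Tgfb2 (20.2%), lower in Col1a1+/-.

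**Figure D1:**
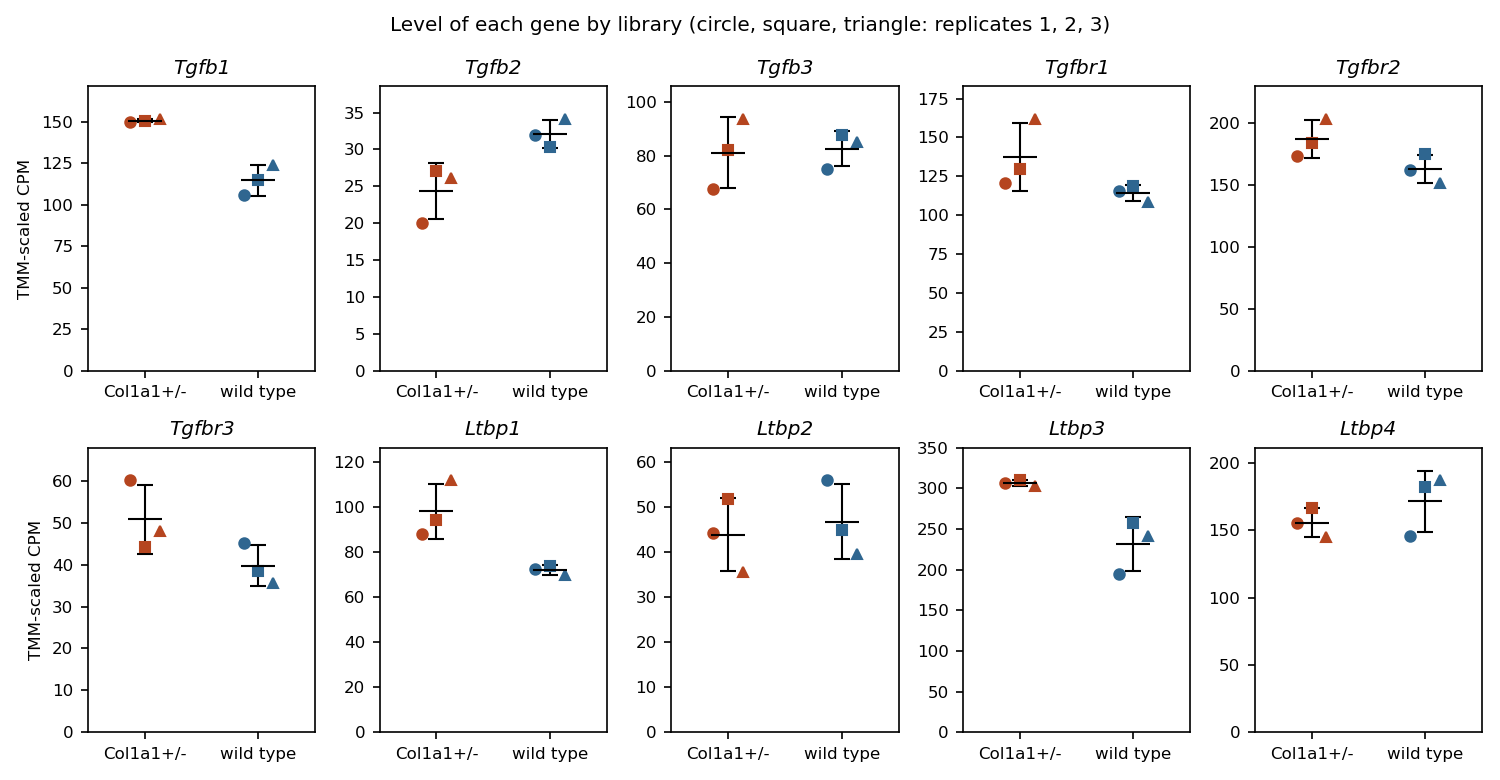
TMM-scaled counts-per-million of each of the 10 genes (vertical axes, from 0) in the 3 Col1a1+/- and the 3 wild-type libraries, with circle, square and triangle for replicates 1, 2 and 3 and the line and bars for the mean and SD. The 3 Col1a1+/- points lie close together for Tgfb1 (150 to 152 CPM) and Ltbp3 (303 to 310 CPM), all above the wild-type points, whereas for Tgfb2 they all lie below them.

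Among the ligands, Tgfb1 was the one with the higher level in Col1a1+/- and Tgfb2 the one with the lower level, without either passing the threshold, and the sign for Tgfb1 turned when libraries were scaled on osteocyte genes. Tgfb1 encodes TGF-beta 1, the main isoform stored in bone, and lies on chromosome 7 (25386427 to 25404502 on the plus strand of GRCm39, the build of all gene positions here, with 5042 bp of exon). It stood at 149.8, 150.5 and 151.7 CPM in Col1a1+/- replicates 1, 2 and 3, against 105.6, 114.8 and 124.2 CPM in WT replicates. The Col1a1+/- libraries were nearly equal, with a coefficient of variation of 0.647%, and all lay above the wild-type libraries, which varied by 8.10%. The fold was 1.31 (95% interval 1.12 to 1.54), a log2 fold change of 0.39 (SE 0.10, edgeR adjusted p = 0.0619, exact permutation p = 0.1, the smallest that 3 against 3 can give). Platelets carry much TGF-beta 1, and their marker list took 0.0213% to 0.0307% of reads in Col1a1+/- and 0.0309% to 0.0383% in WT. Osteoclast markers took 0.845% to 1.06% in Col1a1+/- against 0.580% to 0.705% in WT. Macrophage markers took 0.0877% to 0.106% in Col1a1+/- against 0.0647% to 0.0815% in WT, and osteoblast markers are given above. The part of any of these cells in the Tgfb1 level was not tested. With a muscle score (the mean log2 CPM of the skeletal muscle list) as a covariate, the log2 fold change of Tgfb1 was 0.52 (SE 0.22, edgeR adjusted p = 0.813). That score was 7.07 to 8.73 in Col1a1+/- and 9.64 to 10.67 in WT. Since it did not overlap between the genotypes, fits with it can hardly separate muscle content from genotype.

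Tgfb2 encodes TGF-beta 2, the isoform that needs the co-receptor betaglycan for efficient binding, and lies on chromosome 1 (186354989 to 186438186, minus strand, 5791 bp of exon). It stood at 19.99, 27.05 and 26.13 CPM in the Col1a1+/- replicates, against 31.9, 30.3 and 34.2 CPM in WT replicates. All 3 Col1a1+/- libraries were below all wild-type libraries, and replicate 1 was lowest of all. The fold was 0.759 (95% interval 0.613 to 0.940), a log2 fold change of -0.40 (SE 0.14, edgeR adjusted p = 0.124). Without Col1a1+/- replicate 1 it was -0.26. The sign held in all 16 alternative settings, with adjusted p from 0.0112 to 0.913. Muscle reads were also lower in Col1a1+/- than in WT. With the muscle score in the fit the log2 fold change of Tgfb2 was -0.20 (SE 0.29), and the part of muscle in its level was not tested. Tgfb3, which encodes TGF-beta 3, known for its role in palate closure, lies on chromosome 12 (86103519 to 86125815, minus strand, 3383 bp of exon). It stood at 67.5, 82.0 and 93.6 CPM in the Col1a1+/- replicates, against 75.1, 87.5 and 84.8 CPM in WT replicates. The groups overlapped throughout, and the 95% interval of the fold was 0.797 to 1.21 (log2 fold change -0.03, edgeR adjusted p = 0.938). Opposite-strand genes Gm37804 and Gm48008 covered 12.4% of the Tgfb3 exon length, and reads there were left out of its count.

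The balance of the ligands was compared as ratios of reads per kilobase of exon within each library, which do not depend on how libraries are scaled. The ratio of Tgfb2 to Tgfb1 was 0.116, 0.156 and 0.150 in the Col1a1+/- replicates, against 0.263, 0.230 and 0.239 in WT replicates. It averaged 0.141 ± 0.0216 in Col1a1+/- libraries against 0.244 ± 0.0171 in WT libraries, a quotient of 0.577 (SD, n = 3 per genotype, exact two-sided permutation p = 0.1, 0.175 adjusted over the 7 ratios and shares compared). The ratio of Tgfb3 to Tgfb1 was 0.671, 0.812 and 0.920 in Col1a1+/- and 1.06, 1.14 and 1.02 in WT. With Tgfb3 taken over the exon length it shares with no other gene, a length chosen after the values were seen, the ratio was 0.767, 0.927 and 1.05 in Col1a1+/- and 1.21, 1.297 and 1.16 in WT, so whether Tgfb3 lies above or below Tgfb1 depends on that length. On either length the Col1a1+/- mean divided by the WT mean was 0.748 (exact permutation p = 0.1, adjusted p = 0.175). For both ratios the genotypes did not overlap, and the p could not go lower. Both divide by Tgfb1, so they are not independent results, and Tgfb3 alone had a log2 fold change of -0.03.

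**Figure D2:**
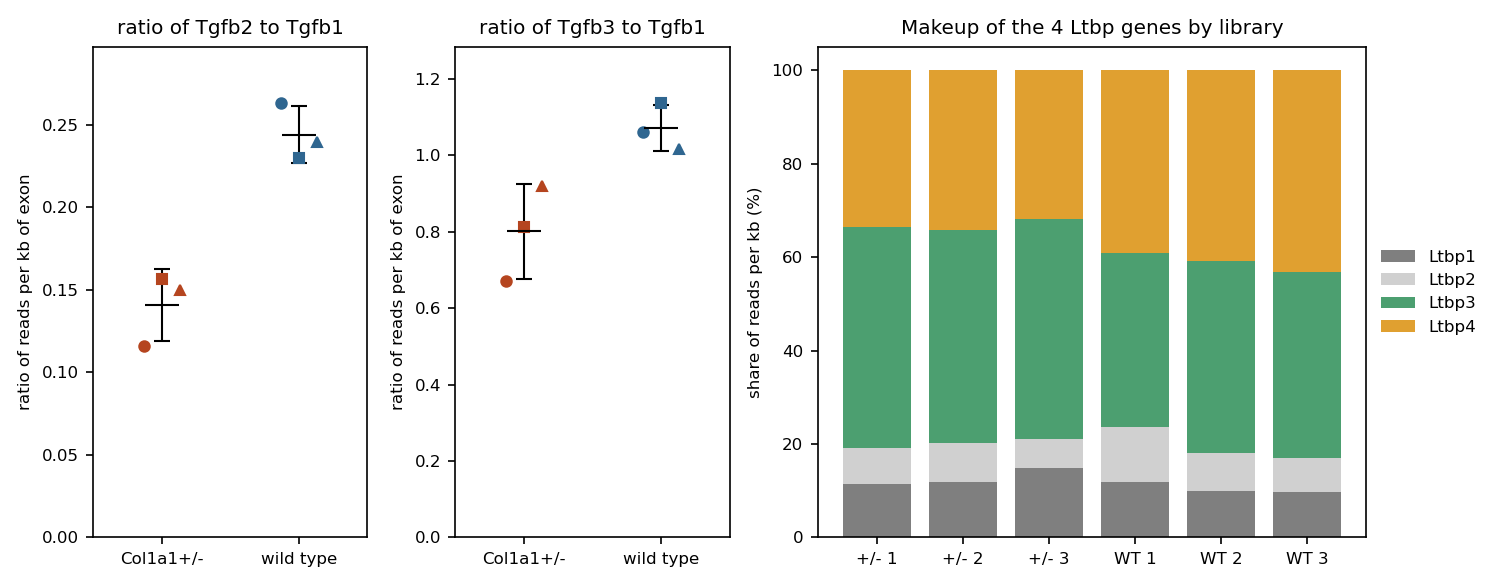
Left and middle, the ratio of Tgfb2 and of Tgfb3 to Tgfb1 in reads per kilobase of exon, by library, with the mean and SD of each genotype. Right, the share of each of the 4 Ltbp genes in their summed reads per kilobase in each library, where Ltbp3 takes 45.5% to 47.3% in the 3 Col1a1+/- libraries and 37.2% to 41.2% in the 3 wild-type libraries.

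The 3 receptor genes had log2 fold changes above 0 in this scaling, none past the threshold, and all 3 were below 0 when libraries were scaled on osteocyte genes. Tgfbr1 encodes the type I receptor kinase and lies on chromosome 4 (47353222 to 47414931, plus strand, 6534 bp of exon). It stood at 120.6, 129.4 and 162.0 CPM in the Col1a1+/- replicates, against 115.4, 118.6 and 108.5 CPM in WT replicates. The groups did not overlap, but Col1a1+/- replicate 3 stood well above the other libraries, and without it the log2 fold change was 0.15. The fold was 1.203 (95% interval 0.985 to 1.47, log2 fold change 0.27, SE 0.13, edgeR adjusted p = 0.254). Tgfbr2 encodes the type II receptor kinase, which binds the ligand first, and lies on chromosome 9 (115913361 to 116004428, minus strand, 8187 bp of exon). It stood at 173.7, 183.7 and 203.4 CPM in the Col1a1+/- replicates, against 161.8, 174.7 and 151.8 CPM in WT replicates. The lowest Col1a1+/- library lay just below the highest wild-type one, and the fold was 1.15 (95% interval 0.963 to 1.37, edgeR adjusted p = 0.333).

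Tgfbr3 encodes betaglycan, the co-receptor that presents TGF-beta to the type II receptor, and lies on chromosome 5 (107254436 to 107437495, minus strand, 6545 bp of exon). It stood at 60.1, 44.2 and 48.1 CPM in the Col1a1+/- replicates, against 45.2, 38.4 and 35.6 CPM in WT replicates. Replicate 1 was the highest library in both genotypes, and Col1a1+/- replicate 2 lay below wild-type replicate 1. The fold was 1.28 (95% interval 1.02 to 1.60, log2 fold change 0.35, SE 0.14, edgeR adjusted p = 0.181), and 0.23 on the log2 scale without Col1a1+/- replicate 1. The ratio of Tgfbr2 to Tgfbr1 in reads per kilobase was 1.09 ± 0.0804 in Col1a1+/- and 1.14 ± 0.0332 in WT (SD, n = 3 per genotype, exact permutation p = 0.6). With the muscle score as a covariate the log2 fold changes of Tgfbr1, Tgfbr2 and Tgfbr3 were -0.07, 0.01 and -0.05 (SE 0.25, 0.23 and 0.28).

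Of the 4 latent TGF-beta binding protein genes, Ltbp1 and Ltbp3 had higher levels in Col1a1+/- and Ltbp2 and Ltbp4 overlapped between the genotypes, with no gene past the threshold, and Ltbp1 and Ltbp3 turned below 0 when libraries were scaled on osteocyte genes. Ltbp1 encodes a binding protein that anchors latent TGF-beta to fibronectin and fibrillin fibres, and lies on chromosome 17 (75312563 to 75699507, plus strand, 10691 bp of exon). It stood at 88.3, 94.5 and 112.1 CPM in the Col1a1+/- replicates, against 72.6, 74.0 and 70.01 CPM in WT replicates. The wild-type libraries had a coefficient of variation of 2.81%, and the lowest Col1a1+/- library was above them all. The fold was 1.36 (95% interval 1.14 to 1.62), a log2 fold change of 0.44 (SE 0.11, edgeR adjusted p = 0.0581, exact permutation p = 0.1). Without wild-type replicate 1, edgeR called 9.26% of all genes and 2 members, Ltbp1 (log2 fold change 0.48, adjusted p = 0.0371) and Tgfb1 (log2 fold change 0.37, adjusted p = 0.0392).

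Ltbp3 encodes a binding protein whose loss in mice alters the skeleton, and lies on chromosome 19 (5790932 to 5808560, plus strand, 9069 bp of exon). It stood at 307, 310.0 and 303 CPM in the Col1a1+/- replicates, against 194, 258 and 242 CPM in WT replicates. The Col1a1+/- libraries had a coefficient of variation of 1.09% and the wild-type libraries one of 14.3%, with replicate 1 lowest. The fold was 1.33 (95% interval 1.08 to 1.63), a log2 fold change of 0.41 (SE 0.13, edgeR adjusted p = 0.108). The muscle score in the fit put Ltbp3 at 0.59 (SE 0.28) and Ltbp1 at 0.21 (SE 0.23). Ltbp2 encodes the family member that is not known to bind latent TGF-beta, and lies on chromosome 12 (84829986 to 84923306, minus strand, 8184 bp of exon). It stood at 44.3, 51.9 and 35.7 CPM in the Col1a1+/- replicates, against 56.0, 44.9 and 39.5 CPM in WT replicates. The genotypes overlapped, with a fold of 0.939 (95% interval 0.720 to 1.22, edgeR adjusted p = 0.803), and an opposite-strand gene covered 9.34% of its exon length. Ltbp4 encodes a binding protein of elastic fibres that pairs with TGF-beta 1, and lies on chromosome 7 (27004561 to 27037117, minus strand, 6463 bp of exon). It stood at 155, 166 and 145 CPM in the Col1a1+/- replicates, against 146, 182 and 187 CPM in WT replicates, a fold of 0.907 (95% interval 0.744 to 1.11, edgeR adjusted p = 0.566).

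The makeup of the 4 Ltbp genes within each library does not depend on scaling. Ltbp3 held 46.7% ± 1.02 of their summed reads per kilobase in Col1a1+/- and 39.4% ± 2.03 in WT, and Ltbp4 held 33.2% ± 1.30 in Col1a1+/- and 41.1% ± 2.06 in WT (SD, n = 3 per genotype, exact permutation p = 0.1 for each, 0.175 adjusted over the 7 comparisons). Neither share overlapped between the genotypes. The 4 shares add up to a whole, so they are not independent results, and the CPM of Ltbp4 alone overlapped (log2 fold change -0.14). Ltbp1 held 12.7% ± 1.83 in Col1a1+/- and 10.5% ± 1.10 in WT, and Ltbp2 held 7.39% ± 1.15 in Col1a1+/- and 9.02% ± 2.52 in WT, both overlapping (SD, n = 3 per genotype, exact permutation p = 0.3 and 0.5).

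**Figure D3:**
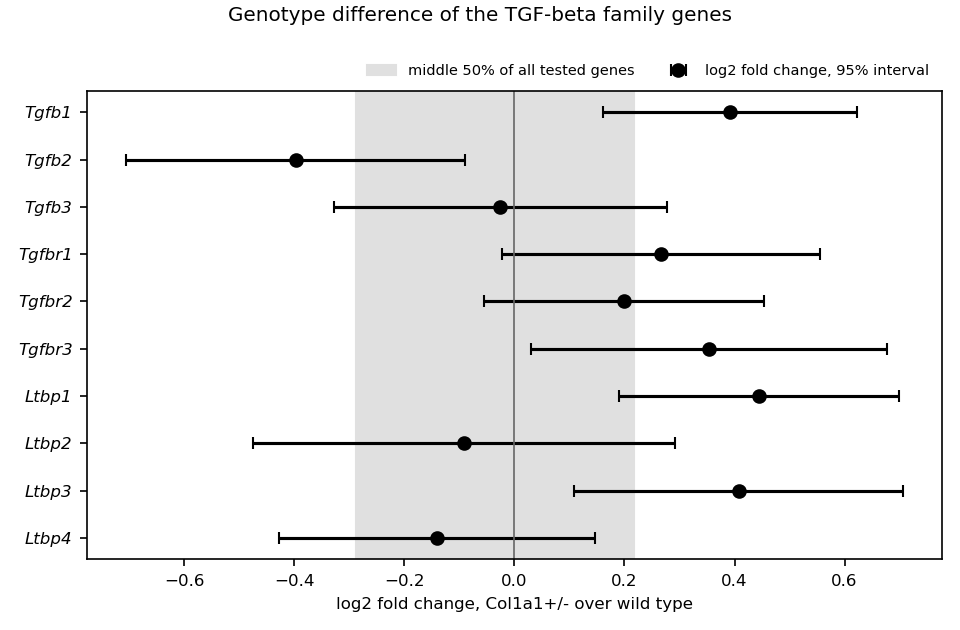
Log2 fold change, Col1a1+/- over wild type, of each gene with its 95% interval from the edgeR fit, over a grey band that spans the middle 50% of all 18514 tested genes. Intervals of Tgfb1, Tgfbr3, Ltbp1 and Ltbp3 lie above 0 and that of Tgfb2 below 0, before any adjustment for the number of genes tested.

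Compared per length of exon, as CPM per kilobase, the 10 genes formed an abundant and a scarce set in both genotypes. In Col1a1+/- Ltbp3 was highest at 33.8 ± 0.368 and Tgfb1 next at 29.9 ± 0.193 (SD, n = 3), each apart from its neighbour below over the full exon length. Ltbp4, Tgfb3, Tgfbr2 and Tgfbr1 followed at 24.1, 24.0, 22.8 and 21.0 CPM per kilobase and overlapped in order. Ltbp1 at 9.19 overlapped Tgfbr3 at 7.76, and Ltbp2 at 5.37 overlapped Tgfb2 at 4.21. In wild type the order from Ltbp4 at 26.6 through Ltbp3 at 25.5, Tgfb3 at 24.4 and Tgfb1 at 22.8 to Tgfbr2 at 19.9 had no break between neighbours. Tgfbr1 lay apart at 17.5, and Ltbp1, Tgfbr3, Ltbp2 and Tgfb2, at 6.75, 6.07, 5.72 and 5.55 CPM per kilobase, overlapped in turn. Over the exon length shared with no other gene, Tgfb3 was at 27.4 ± 4.42 in Col1a1+/-, where it then overlapped Tgfb1, and at 27.8 ± 2.201 in WT, where it then stood above Ltbp4 but overlapped it (SD, n = 3 per genotype). Ltbp2 in Col1a1+/- was then at 5.92 and no longer overlapped Tgfb2 at 4.30. On both lengths Tgfb1 ranked 2 of 10 in Col1a1+/- and 4 of 10 in WT, while Tgfb2 was last in both. Reads per gene and library ran from 667 for Tgfb2 to 10245 for Ltbp3, with both mates of a read pair counted.

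Replicates of 1 genotype did not vary alike across the 10 genes. Within Col1a1+/-, replicate 3 was the highest library for 5 genes, Tgfb1, Tgfb3, Tgfbr1, Tgfbr2 and Ltbp1, and the lowest for 3, Ltbp2, Ltbp3 and Ltbp4. Replicate 1 was the lowest of that genotype for 6 genes, among them all 3 ligands. Within WT, replicate 1 was the lowest for 4 genes, Tgfb1, Tgfb3, Ltbp3 and Ltbp4, and the highest for Tgfbr3 and Ltbp2. The greatest spread within a genotype belonged to Ltbp2, at a coefficient of variation of 18.5% in Col1a1+/- and 18.0% in WT.

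**Figure D4:**
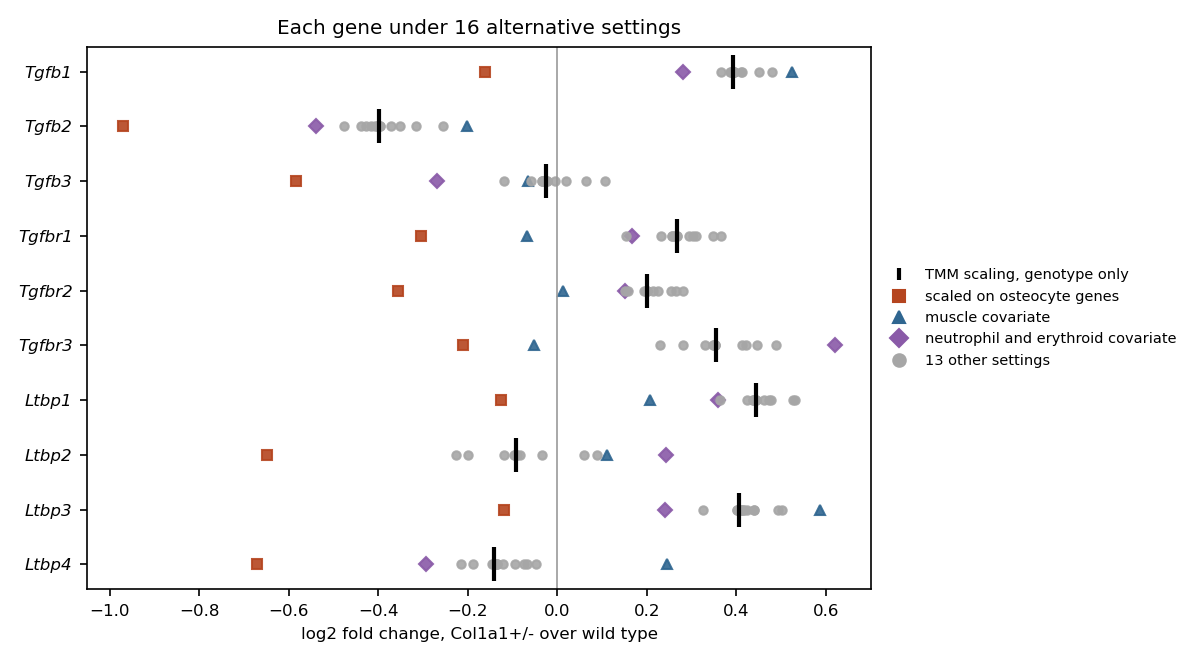
Log2 fold change of each gene, Col1a1+/- over wild type, with TMM scaling and genotype as the only term (black line) and under 16 alternative settings (symbols). Scaling on osteocyte genes moves every gene to the left, as it moves the median of all tested genes to -0.57. The muscle covariate moves the receptors to about 0 but Tgfb1 and Ltbp3 further right. The muscle score did not overlap between the genotypes, and standard errors were larger with it.

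The other genes of the pathway were followed in 5 lists with 58 tested genes, of which 11 rose and 1 fell in Col1a1+/- (median log2 fold change 0.29), where 1.43% of all tested genes rose and 2.91% fell. The lists were chosen with earlier results of these data known, so the comparison with all tested genes is a description. With osteocyte scaling, which called 20.2% of all tested genes, 1 of the 58 was higher and 5 lower (median -0.27). Of the genes called with the main scaling only Itgb6 kept its call there. Genes for latent complex assembly and activation rose at Bmp1 and Emilin1 and fell at Itgb6, so 2 of 17 were higher and 1 lower (median 0.27). Bmp1 encodes the procollagen C-proteinase, which also cleaves LTBP1, and stood at 1101, 995 and 1096 CPM in the Col1a1+/- replicates, against 504, 700.3 and 642 CPM in WT replicates (log2 fold change 0.79, SE 0.16, edgeR adjusted p = 0.0386). Emilin1 encodes a matrix glycoprotein that holds back the processing of pro-TGF-beta 1, and averaged 227 ± 25.1 CPM in Col1a1+/- and 154 ± 12.3 CPM in WT (SD, n = 3 per genotype, log2 fold change 0.56, edgeR adjusted p = 0.0419). Itgb6 encodes the beta 6 integrin chain, which with the alpha V chain frees latent TGF-beta, and was scarce at 6.53, 8.88 and 3.67 CPM in Col1a1+/- against 14.7, 15.5 and 19.1 CPM in WT (log2 fold change -1.37, SE 0.29, edgeR adjusted p = 0.0431). Muscle reads were also lower in the Col1a1+/- libraries. With the muscle covariate edgeR called none of these 58 genes nor any other gene. In that fit 13 of the 58 had an unadjusted p under 0.05, beside 1094 of all 18514 tested genes. The log2 fold changes of the 11 genes that rose were 0.36 (Emilin1) to 1.96 (Comp) in that fit, with Bmp1 at 0.80, Bgn at 0.82 and Fn1 at 1.08, whereas Itgb6 was at -0.06. The muscle score did not overlap between the genotypes, and the part of muscle in these values was not tested.

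Among 5 genes for matrix or cell-surface proteins that bind the TGF-beta ligands, 2 rose and none fell (median 0.63). Biglycan (Bgn), a small proteoglycan, averaged 2346 ± 203 CPM in Col1a1+/- and 1297 ± 222 CPM in WT (SD, n = 3 per genotype, log2 fold change 0.85, edgeR adjusted p = 0.0423). Reads of osteoblast markers were also higher in Col1a1+/-, and their part in the levels of Bgn and Bmp1 was not tested. Vasorin (Vasn), a TGF-beta trap, stood at 130.4, 129.6 and 133.6 CPM in the Col1a1+/- replicates, against 70.8, 93.1 and 87.7 CPM in WT replicates (log2 fold change 0.65, SE 0.12, edgeR adjusted p = 0.0306). Among 6 accessory receptor genes Cd109, a membrane-anchored co-receptor that restrains signalling, rose 1.47-fold (177.6 ± 20.05 CPM in Col1a1+/- and 120.9 ± 11.8 CPM in WT, SD, n = 3 per genotype, edgeR adjusted p = 0.046), and the endothelial type I receptor Acvrl1 stood at -0.10 (adjusted p = 0.645). The list median was 0.10.

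None of the 12 SMAD genes and regulators passed by edgeR, where 4.34% of all tested genes did, and 5 had an unadjusted p under 0.05, against 22.8% of all tested genes (median 0.19). The inhibitory SMAD gene Smad7 stood at 33.8, 33.1 and 33.9 CPM in the Col1a1+/- replicates, against 27.1, 23.9 and 26.7 CPM in WT replicates (log2 fold change 0.37, SE 0.10, edgeR adjusted p = 0.0706). Ppm1a, a phosphatase that acts on SMAD2 and SMAD3, stood at 91.8, 105.5 and 92.6 CPM in Col1a1+/- and 117.2, 137.5 and 168.3 CPM in WT (log2 fold change -0.54, SE 0.14, edgeR adjusted p = 0.0624). Of 18 TGF-beta target genes 6 rose and none fell (median 0.44), namely Fn1, Comp, Ccn2, Timp1, Snai1 and Snai2, where 1.43% of all tested genes rose. Of the 18, 14 had a log2 fold change above 0. Below 0, without passing, were Tagln (-1.02, with 3 to 26 reads per library), Nox4 (-0.44), Acta2 (-0.29) and Klf10 (-0.07). Osteoblast markers moved with the 6 that rose, 11 of 16 rising (median 0.80). Their share of reads averaged 8.75% in Col1a1+/- and 4.57% in WT, and their part in this was not tested. Fn1, for fibronectin, averaged 2421 ± 216 CPM in Col1a1+/- and 1128 ± 87.7 CPM in WT (SD, n = 3 per genotype, log2 fold change 1.10, edgeR adjusted p = 0.0232). Ccn2, for connective tissue growth factor, stood at 244, 235 and 185 CPM in the Col1a1+/- replicates, against 124, 130.2 and 129.9 CPM in WT replicates (log2 fold change 0.79, SE 0.13, edgeR adjusted p = 0.0239). The groups did not overlap for either gene. The other 4 targets that rose had log2 fold changes of 0.59 to 1.23. Comp, at the top of that range, is also one of the chondrocyte markers, whose reads were higher in the same libraries. The opposite-strand gene Gm15270 covered 24.4% of the Ccn2 exon length. Without Col1a1+/- replicate 1, or without WT replicate 2 or 3, none of the 12 called pathway genes passed, and without Col1a1+/- replicate 3 only Ccn2 and Comp did.

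**Figure D5:**
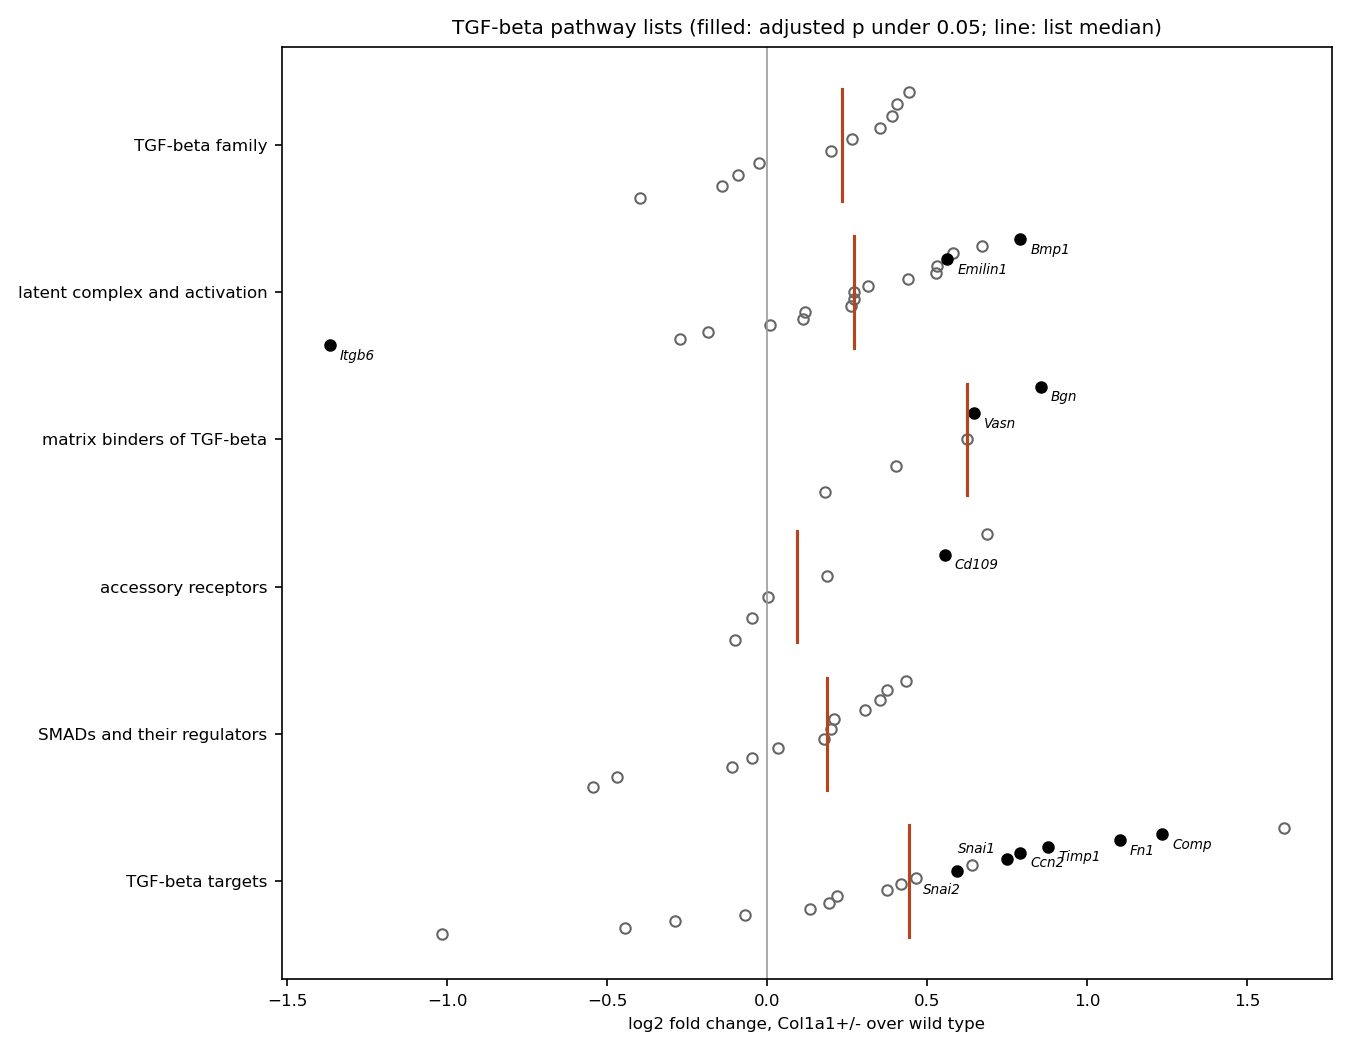
Log2 fold change, Col1a1+/- over wild type, of the 10 family genes and the 58 genes of 5 pathway lists, 1 circle per gene, filled and named where the edgeR adjusted p is under 0.05, with a line at each list's median. Filled circles stand in 4 of the 5 pathway lists and none among the 10 family genes, whose median is 0.23.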

How the data were processed

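Each of the 6 samples has 1 deposited table of unnormalized read counts by gene, per the file headers. The submitters' processing notes name Trimmomatic 0.39, HISAT2 2.2.1 and SAMtools 1.20. Counting was by featureCounts 2.0.3 over exons of Ensembl release 107 on the GRCm39 build, as those headers record. Its command line sets no strand, counts each mate of a pair and leaves out reads that overlap several genes. Symbols were matched by identifier for 52073 of 56748 genes (91.76%). From the counts, filterByExpr kept 18514 genes, libraries were scaled by TMM, and genotypes were compared in edgeR 4.0.16 (R 4.3.3) by the robust quasi-likelihood F test with Benjamini-Hochberg adjustment over all tested genes, threshold 0.05, two-sided, genotype the only term. Log2 fold changes have Col1a1+/- on top. limma 3.58.1 and DESeq2 1.42.0 were alternatives. Ratios and shares were compared by exact two-sided permutation tests.

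Pairs of libraries within a genotype differed by 25.7 to 87.6 times the variance of counting alone, so none was a copy. Genes named are the 10 members, Col1a1, the called genes of each pathway list and, where fewer than 2 were called, those with the smallest p in each direction, and for each ligand the 3 genes most like it. The TGF-beta targets with log2 fold changes below 0, and Cilp, are named besides. Members, lists, ratios and markers were chosen with earlier results of these data known.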

Additional observations from a re-analysis of the deposited data

How the results depend on the processing

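Of all genes, edgeR called 803, against 1327 with library totals, 3743 with osteocyte scaling, 1472 with no low-count filter, 2256 by DESeq2, 351 with the neutrophil and erythroid covariate, 0 with the muscle covariate (1094 at an unadjusted p under 0.05), and 0 to 1766 with 1 library left out (0 when Col1a1+/- replicate 1 or WT replicate 3 was dropped, with 3275 and 3239 at an unadjusted p under 0.05, 8 when WT replicate 2 was, 44 when Col1a1+/- replicate 3 was and 1766 when WT replicate 1 was). Of the 10 family genes it called 0, against 2 with library totals, 1 with osteocyte scaling, 1 with no low-count filter, 3 by DESeq2 and 0 to 2 with 1 library left out. Of the 58 pathway genes it called 12, against 6 with osteocyte scaling, 19 with no filter, 22 by DESeq2, 3 with the neutrophil and erythroid covariate, 0 with the muscle covariate and 0 to 16 with 1 library left out. All 12 kept their sign in every setting, but several came close to 0. With osteocyte scaling Cd109 was at 0.007, Emilin1 at 0.01, Vasn at 0.11, Bmp1 at 0.26 and Bgn at 0.32, and only Itgb6 kept its call. With the neutrophil and erythroid covariate only Ccn2 of the 12 kept its call. With the muscle covariate Itgb6 was at -0.058, while Bmp1 (0.80), Vasn (0.75), Fn1 (1.08) and Timp1 (1.23) stayed about as large or grew. None of the 12 kept its call once Col1a1+/- replicate 1, WT replicate 2 or WT replicate 3 was dropped. The muscle score did not overlap between the genotypes, so the fit with it can hardly separate muscle content from genotype. The cause of these moves was not tested. Signs turned with osteocyte scaling, which lowers the median of all genes to -0.57, for Tgfb1 (-0.16), Tgfbr1 (-0.31), Tgfbr2 (-0.36), Tgfbr3 (-0.21), Ltbp1 (-0.12) and Ltbp3 (-0.12). They turned with the muscle covariate for Tgfbr1 (-0.068), Tgfbr3 (-0.053), Ltbp2 (0.11) and Ltbp4 (0.25), with library totals for Tgfb3 (0.065) and with the neutrophil and erythroid covariate for Ltbp2 (0.24). With 1 library left out Tgfb3 ran from -0.12 to 0.11 and Ltbp2 from -0.23 to 0.089. The 7 ratios and shares moved by less than the SD between replicates in every setting, among them the exon length shared with no other gene, chosen after seeing the data. That SD leaves room for large moves. On the log2 scale the Ltbp2 share went from -0.29 to -0.04 without WT replicate 1. Without Col1a1+/- replicate 3 the Ltbp1 share went from 0.27 to 0.15, and the ratio of Tgfbr2 to Tgfbr1 from -0.05 to 0.005. The ratio of Tgfb2 to Tgfb1 stayed between -0.88 and -0.67 with 1 library left out. The labels do not say that replicate numbers pair samples. Deviations of same-numbered samples correlated at 0.107, 0.0413 and -0.122, and those of differently numbered samples at -0.198 to 0.194. With 3 samples per genotype these values cannot tell whether samples were paired. A replicate block called 126 genes in all and 0 of the family. It called 2 of the pathway genes, Timp1, which is among the 12, and Cilp, which is not.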

Other observations

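Other lists of cell type markers gave these counts between the genotypes by edgeR, where 1.43% of all tested genes rose and 2.91% fell. An unadjusted p under 0.05 was reached by 22.8% of all tested genes. Of 16 osteoblast markers 11 rose and none fell in Col1a1+/- (median log2 fold change 0.80), and of 13 chondrocyte markers 6 rose (median 1.21). Of 24 skeletal muscle genes 11 fell (median -1.57), and 1 megakaryocyte gene of 9 tested (median -0.54) and 1 adipocyte gene of 8 (median -0.08) fell. None passed among 11 osteocyte (median 0.52, 2 at an unadjusted p under 0.05), 14 osteoclast (0.36, 7), 12 neutrophil (-1.27, 4), 11 erythroid (0.05, 0), 10 tendon (-0.37, 4), 10 macrophage (0.27, 6), 10 B lymphoid (-0.40, 4) and 11 endothelial genes (0.04, 2). With the muscle covariate, and without Col1a1+/- replicate 1 or WT replicate 3, no gene of any list was called, as none was among all genes.

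The 3 genes whose log2 CPM followed each ligand most closely over the 6 libraries, of 15383 searched, are given as a description. They were Srpx, Gm6277 and D11Wsu47e for Tgfb1 (Pearson r 0.9945, 0.9939 and 0.9935 in that order). For Tgfb2 they were Ube3c (0.997), B230312C02Rik (0.992) and Ulk2 (0.989), and for Tgfb3 Lman1l (0.9751), Smarce1 (0.974) and Prrg3 (0.9675). With 6 points that share genotype and library makeup, 204 genes exceeded 0.95 for Tgfb1, 68 for Tgfb2 and 6 for Tgfb3.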
